A study of Mus musculus with 42 samples.

Results

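The adipokine genes described here are Lep, Adipoq, Retn, Cfd and Rbp4, which encode leptin, adiponectin, resistin, complement factor D (adipsin) and retinol binding protein 4. They were taken by name: a probe belonged if its gene name on the array was one of these symbols, which gave 5 genes of 21186 and 6 probes of 41174. Their RNA was read on 42 arrays, 3 of aorta and 3 of skeletal muscle in each of 7 groups of male mice. KK/Ay mice, an obese strain that becomes diabetic of its own accord, formed the diabetic group (A) without further induction. KK/Ay mice fed a high-fat diet and given L-NAME, an inhibitor of nitric oxide synthesis, in the drinking water for 8 weeks formed the macroangiopathy group (C). The same model was treated by gavage for 8 weeks with SHENQI compound (B), its yangyinyiqi part (D), its huoxue part (E) or rosiglitazone (F), a drug that activates the nuclear receptor PPARgamma. C57BL/6 mice were the healthy group (G), and groups A, C and G received saline. Groups A and C therefore differed from G in strain as well as in disease, and the 2 cannot be told apart. Mice were 18 to 20 weeks old on entry, before these 8-week periods, and the labels do not say which aorta and which muscle came from the same mouse.

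Adipokines are proteins that fat cells release into the blood. Leptin reports the size of the fat stores to the brain, adiponectin raises the sensitivity of liver and muscle to insulin, and resistin in mice lowers it. Adipsin is a serine protease that starts the alternative complement pathway, and retinol binding protein 4 carries vitamin A in plasma. In mice the first 4 are made mainly by fat cells, whereas Rbp4 is also made by the liver. An aorta dissected from a mouse carries perivascular fat, and a skeletal muscle carries fat between its fibres, so the question put to each gene was how its level moved between groups and tissues and where the fat cell markers of the same array stood. In bulk RNA, fewer cells of a type and less RNA per cell cannot be told apart.

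The probes are 60-base oligonucleotides placed by the array design on the mouse genome build mm9. Lep was read by A_52_P374882 at chr6:29023234-29023293, printed on 10 spots of each array. Cfd was read by A_51_P156955 at chr10:79355302-79355361, and Rbp4 by A_51_P374752 at chr19:38191129-38191188 on the minus strand. Adipoq was read by a single probe at chr16:23157576-23157635. Retn was the only member with 2 probes, each of which spans 822 bases of genome on chromosome 8 although it has 60 bases, so both lie across a gap in the gene model. The Adipoq probe is shown because Adipoq followed the fat markers most closely, and the Retn probes because the largest difference from group G over both tissues rests on them. They share 22 bases, set in capitals, and so are not independent readings.
Adipoq A_51_P458451: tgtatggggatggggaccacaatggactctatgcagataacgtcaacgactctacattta
Retn A_51_P233597: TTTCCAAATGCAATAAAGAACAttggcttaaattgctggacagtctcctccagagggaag
Retn A_52_P55972: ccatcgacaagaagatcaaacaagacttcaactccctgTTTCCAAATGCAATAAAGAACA
Over the 21 arrays of a tissue the Retn probes correlated at r = 0.975 in aorta and 0.96 in muscle, and their mean was used.

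Adipokine genes are regulated in fat cells by the C/EBP factors and by PPARgamma. Their promoters, 300 bases around each start in RefSeq's GRCm38.p6 annotation, were searched on both strands for 4 motifs. The C/EBP consensus TTNCGNAA was found in 2 of the 6 member windows, against 2.47% of 32851 windows. The core AGGTCA, to which PPARgamma and other nuclear receptors bind, was in 0 of the 6 and in 16.3% of all windows. The DR1 motif, a direct repeat of that core with 1 base between its copies and 1 free position in each, was in 0 of the 6 and in 0.381% of all windows. TATAAA was in 1 window, an Rbp4 window, against 13.6% of all. A match is a description of letters, and a missing match says only that they are not in this window. The 100 bases before the Lep start (chr6:29060121-29060220, plus strand) and before the second Rbp4 start (chr19:38124812-38124911, minus strand) are shown because they hold the C/EBP match, set in capitals, and Lep was called higher in A and C than in G, whereas Rbp4 was not called.
Lep: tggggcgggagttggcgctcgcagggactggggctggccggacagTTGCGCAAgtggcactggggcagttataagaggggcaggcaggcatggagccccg
Rbp4: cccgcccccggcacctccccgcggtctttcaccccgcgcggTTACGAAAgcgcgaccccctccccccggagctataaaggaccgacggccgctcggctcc

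All levels below are log2 normalised intensities, which compare arrays for 1 gene and not genes with each other, and a difference of 1 is a 2-fold change. Between 57.9% and 73.5% of probes were well above background on the aorta arrays and between 49.1% and 65.2% on the muscle arrays, and no spot of a member was saturated. The tissue labels fitted their markers in part: the mean of 5 skeletal muscle genes was 16.51 to 16.93 in muscle and 8.605 to 15.31 in aorta. The highest of these aorta values, 15.31, was diabetic aorta 2, 1 of the 3 arrays behind each aorta mean of group A. The mean of 4 smooth muscle genes was 9.433 to 11.23 in muscle and 10.29 to 15.46 in aorta. The lowest of the aorta values, 10.29, was healthy aorta 1. On that array the mean of 3 neutrophil genes was 14.88, and it was 13.12 on healthy muscle 3, whereas on the other healthy arrays it lay between 6.777 and 9.498 and on the KK/Ay arrays between 7.052 and 12.57. The mean of 13 white fat genes, which hold no member, was 10.58 to 12.62 in aorta and 8.826 to 10.78 in muscle, with 11 or more of the 13 well above background on every array. The mean of 4 macrophage genes ran from 7.58 to 9.036 in aorta and from 7.66 to 9.226 in muscle, and its highest values were those of healthy aorta 1 and healthy muscle 3. Of 4 hepatocyte markers as few as 0 were well above background, and their mean did not pass 6.71 on any array.

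All of the 5 genes but Lep were higher in aorta than in skeletal muscle over the 7 groups. Cfd was 11.2-fold higher in aorta (log2 difference 3.48, adjusted P value 1.67e-13), Rbp4 11.1-fold (3.47, 8.01e-15) and Adipoq 8.34-fold (3.06, 3.73e-13). Retn differed less, by 1.32 (1.34e-05). Lep was the exception, with a difference of 0.13 and an adjusted P value of 0.574. With 76.9% of all genes called between the tissues by the same limma fit of 42 arrays, 4 of 5 was close to the background. The white fat markers lay on the same side, with 12 of 13 called higher in aorta and a median difference of 2.33 against 0.029 over all genes. With the white fat mean of each array as a covariate, the differences were 0.29 for Cfd (adjusted P value 0.544), -0.16 for Adipoq (0.554) and 1.09 for Rbp4 (0.0441), while Retn (-1.31, 0.0165) and Lep (-2.08, 2.46e-05) lay lower in aorta. The white fat mean, 10.58 to 12.62 in aorta and 8.826 to 10.78 in muscle, nearly separates the tissues. The differences with the covariate therefore rest on 1 slope shared by both tissues. Lep was also well above background on only 1 of 3 healthy arrays in each tissue. The part of fat in the tissue differences was not tested further.

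**Figure D1:**
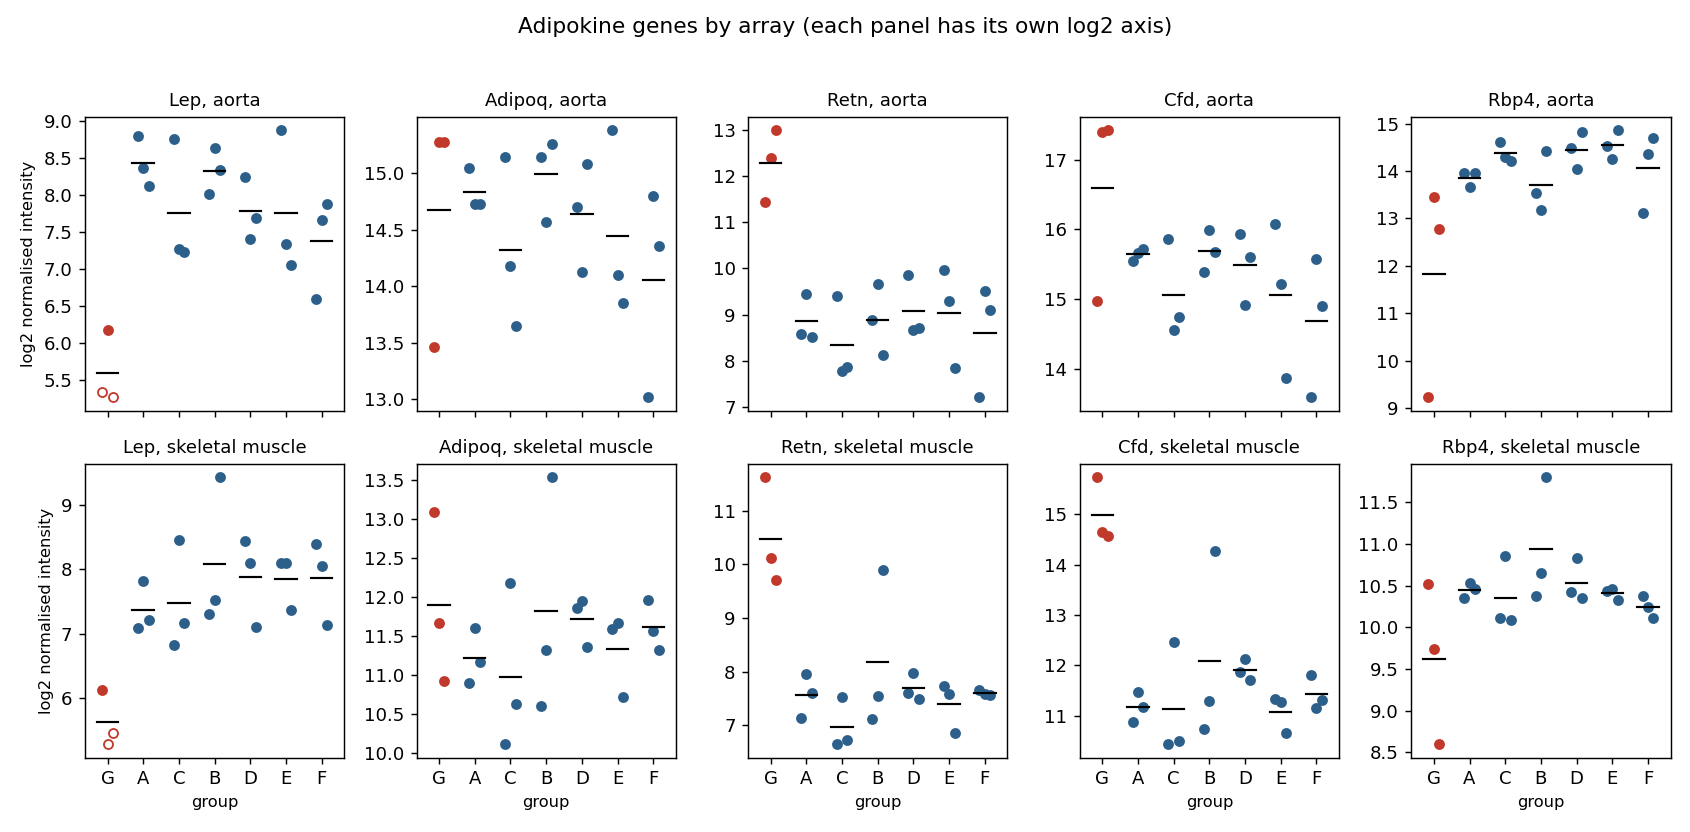
Level of each adipokine gene on every array, as log2 normalised intensity, by group (G healthy, A diabetic, C macroangiopathy, B SHENQI, D yangyinyiqi, E huoxue, F rosiglitazone), with aorta in the upper row and skeletal muscle in the lower. Red points are healthy mice, blue points KK/Ay mice, open points were not well above background, and bars are means of 3; Lep was lowest and Retn highest in group G in both tissues, and no axis starts at 0.

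Diabetic mice against healthy mice asked what the KK/Ay background with its diabetes did to these genes. Over both tissues, with tissue as a term in the fit, Lep was higher and Retn and Cfd were lower in group A, whereas Adipoq and Rbp4 did not pass. These were 3 of 5 members, against 4.5% of the 14808 genes tested. Members and lists were chosen with earlier results of these data known, so this count and the later ones only describe them. Lep entered the test only through the KK/Ay arrays, since it was not well above background on all healthy arrays of either tissue. With no filter on genes it was also called (adjusted P value 0.000757 for A and 0.0109 for C). Macroangiopathy against healthy mice gave calls for these 3 genes in these directions, against 5.17% of 15742 genes, but it used the same 6 healthy arrays. P values measure the spread between the mice sampled, 3 in a group and tissue. The fits over both tissues treat aorta and muscle arrays as separate mice. If a mouse gave both tissues, the 6 arrays of a group are not independent, and the P values of both tissues together could be too small. Where groups are said not to overlap, this only describes the member, since the share of all genes without overlap was not counted.

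Lep, the hormone that ob/ob mice lack, was 5.33, 6.18 and 5.26 in the 3 healthy aortas and 8.81, 8.37 and 8.12 in the diabetic ones. In macroangiopathy aortas it was 8.75, 7.27 and 7.24. Every one of the 18 KK/Ay aortas, from 6.59 to 8.88 with a median of 7.95, lay above every healthy aorta. In muscle, Lep was 6.13, 5.29 and 5.47 in healthy mice, 7.10, 7.81 and 7.21 in diabetic mice and 6.83, 8.45 and 7.16 in macroangiopathy mice. Here too the 18 KK/Ay arrays, from 6.83 to 9.42, did not overlap the healthy ones. The difference of A from G was 2.29 in both tissues together (SE 0.269, adjusted P value 0.000605), 2.84 or 7.17-fold in aorta (0.00214) and 1.74 in muscle (0.0239). That of C from G was 2.01 in both tissues (SE 0.343, 0.00883), 2.16 in aorta (0.0338) and 1.85 in muscle, where it did not pass (0.121). With 1 array left out, the call in muscle of A was lost without healthy muscle 2 or 3 or any diabetic muscle (adjusted P value up to 0.109), and that in aorta of C without healthy aorta 1 or 3, any macroangiopathy aorta or macroangiopathy muscle 3 (up to 0.0926). Lep stood well above background on only 1 of 3 healthy arrays in each tissue, so its size depends on the background correction: A lay above G by 1.34 when 50 was added to every corrected signal and by 4.62 in the authors' values. In the authors' values the muscle difference of A from G did not pass (3.77, 0.0549).

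Retn, whose product is an insulin-opposing hormone in mice, moved the other way. It was 11.44, 12.39 and 12.99 in healthy aortas, 8.59, 9.45 and 8.52 in diabetic aortas and 9.40, 7.78 and 7.86 in macroangiopathy aortas. All 18 KK/Ay aortas, from 7.22 to 9.96, were below all healthy aortas. In muscle it was 11.62, 10.12 and 9.70 in healthy mice, 7.14, 7.96 and 7.61 in diabetic mice and 6.65, 7.52 and 6.73 in macroangiopathy mice. Of the 18 KK/Ay muscles only SHENQI muscle 3, at 9.88, reached the healthy range. Retn fell by 3.17 from G to A in both tissues together (SE 0.358, adjusted P value 0.000533), with differences of -3.42 in aorta (0.00918) and -2.91 in muscle (0.0211). From G to C it fell by 3.72 (SE 0.404, 0.000573), 15.2-fold in aorta (0.00723) and 11.4-fold in muscle (0.0162). The call in muscle was lost for A without healthy muscle 1 or any diabetic muscle (up to 0.119) and for C without healthy muscle 1 or macroangiopathy muscle 1 or 3 (up to 0.0987), and that in aorta of A without diabetic aorta 3 (0.0516). These differences of both tissues kept an adjusted P value of at most 0.0203 under all 26 settings tried for each comparison, those without healthy aorta 1 or healthy muscle 3 among them.

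Cfd, the complement-activating protease that is among the most abundant products of mouse fat cells, showed its gap in muscle. It was 15.73, 14.64 and 14.57 in healthy muscles, 10.87, 11.48 and 11.17 in diabetic muscles and 10.44, 12.46 and 10.50 in macroangiopathy muscles. No KK/Ay muscle, the highest at 14.26 in SHENQI muscle 3, reached the healthy range. In aorta the values overlapped, with 14.97, 17.39 and 17.42 in healthy mice, 15.55, 15.66 and 15.71 in diabetic mice and 15.86, 14.56 and 14.74 in macroangiopathy mice. Cfd was 14-fold lower in diabetic muscle (-3.81, SE 0.566, adjusted P value 0.00815) and 14.4-fold lower in macroangiopathy muscle (-3.85, 0.0294). The call in muscle was lost for A without diabetic muscle 1 (0.0526) and for C without any 1 of the healthy muscles, macroangiopathy muscle 1 or 3 or macroangiopathy aorta 3 (up to 0.149). In aorta the differences were -0.95 (0.432) and -1.54 (0.23), and without healthy aorta 1 the first passed (-1.77, 0.016). The difference between the tissues was 2.85 for A against G with an unadjusted P value of 0.00454, but it did not pass the adjustment (0.427), and it was 2.31 for C against G (0.402). In both tissues together the differences were -2.38 (0.0365) and -2.70 (0.0267), and these calls were lost when single arrays were left out, among them healthy muscle 3, with its high neutrophil mean, for A (0.0694), and were kept without healthy aorta 1 (-2.90 and -3.18).

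Rbp4, the plasma carrier of retinol, was not called in either comparison. It was 9.23, 13.46 and 12.78 in healthy aortas, and the low value belongs to healthy aorta 1. Diabetic aortas were at 13.95, 13.66 and 13.95 and macroangiopathy aortas at 14.62, 14.30 and 14.22, so neither group overlapped the healthy one. The differences in aorta, 2.03 (SE 0.875, adjusted P value 0.267) and 2.56 (0.114), did not pass. Without healthy aorta 1, the array with the high neutrophil and low smooth muscle means, they were 0.74 and 1.26, and without healthy aorta 2 the difference of C from G passed (3.38, 0.0328). In muscle the healthy values of 10.52, 9.74 and 8.60 overlapped the diabetic values of 10.35, 10.53 and 10.46, and the differences were 0.82 (0.748) for A and 0.73 (0.766) for C.

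Adipoq, the insulin-sensitising hormone, overlapped between the groups in both tissues. It was 13.46, 15.28 and 15.28 in healthy aortas and 15.05, 14.73 and 14.73 in diabetic aortas. In muscle it was 13.09, 11.66 and 10.92 in healthy mice and 10.89, 11.60 and 11.16 in diabetic mice. The difference of A from G was -0.26 in both tissues together, with a 95% interval of -1.13 to 0.616 (adjusted P value 0.734), and that of C from G was -0.64, from -1.72 to 0.437 (0.442). These intervals are wide, and they do not show that Adipoq was alike in the groups.

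In single tissues 2 members passed in aorta and 3 in muscle for A against G, against 2.22% and 1.45% of all genes, and 2 in each tissue for C against G, against 6.16% and 1.56%. No member passed the test of a difference between tissues, which 0.0743% of all genes passed for A against G and 0.108% for C against G. At an unadjusted P value below 0.05 there were 2 and 1 members, against 7.12% and 12.4% of all genes. The 2 members in A against G were Cfd and Lep, the latter with a difference of 1.10 between tissues (adjusted P value 0.656). The arrays were processed on 11 slides, and only slide 1 held both groups of one of these comparisons in the same tissue. Slide 4 held healthy muscle 3 beside diabetic aorta 2 and 3. Within slide 1, the diabetic aorta differed from the mean of 2 healthy aortas by 3.51 for Lep, -3.63 for Retn, 2.94 for Rbp4, 0.675 for Adipoq and -0.643 for Cfd. One of these 2 is healthy aorta 1, and on both Lep was not well above background. Against the other alone, Adipoq was lower in the diabetic aorta, 15.05 against 15.28. With slide as a fixed block in aorta alone, which rests on these arrays, the calls of Lep (3.51, 0.359) and Retn (-3.63, 0.524) in A against G were lost. With slide as a random block, Lep and Retn kept their calls in both tissues together, but all 3 muscle calls of A against G were lost (Lep 0.182, Retn 0.203, Cfd 0.0942), as were Cfd in both tissues (0.0746 for A, 0.0528 for C), Cfd in muscle for C (0.0694) and Lep in aorta for C (0.11).

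**Figure D2:**
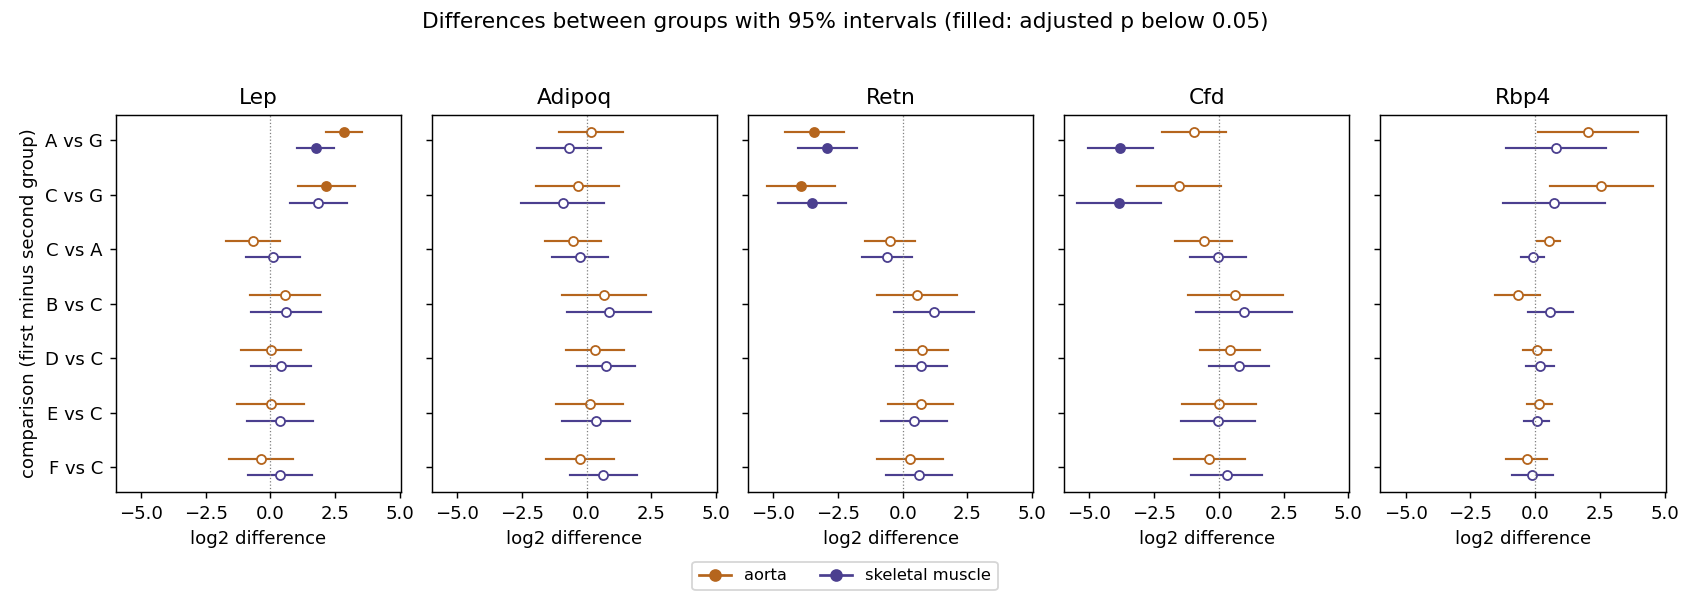
Difference of the first from the second group for each gene in log2 units, with aorta in brown and skeletal muscle in purple, bars of 95% intervals and filled points for an adjusted P value below 0.05. All filled points lie in the upper 2 rows, the comparisons with group G, and among the comparisons within KK/Ay mice only Rbp4 in aorta for C against A has an interval without 0.

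Among the KK/Ay groups no adipokine gene passed in either tissue, in both together or in the difference between tissues. The count of all genes called by limma in both tissues together was 0 for C against A, 0 for B, D and E against C, each 0%, and 1 of 15845, or 0.00631%, for F against C. In muscle alone, however, 1666 of 15727 genes, or 10.6%, were called for E against C and 554, or 3.5%, for F against C, and the difference between tissues was called for 3.05% and 1.51%. In aorta 5 genes, or 0.0318%, were called for C against A, and in the remaining single-tissue and tissue-difference tests among these comparisons 0 were. All 3 huoxue muscle arrays lay on slide 11, which held no macroangiopathy array, so slide and group cannot be told apart there. At an unadjusted P value below 0.05 in both tissues together these comparisons held 5.12% (C against A), 2.71% (B), 3.41% (D), 14.3% (E) and 12% (F) of all genes. Of the members only Retn in D against C was among them (0.73, unadjusted P value 0.0339, adjusted 0.999). In single tissues and tissue differences the members below that level were Rbp4 in aorta for C against A (0.0218) and the tissue difference of Rbp4 for C against A (0.0473) and for B against C (0.0472). Of all genes, 7.73%, 4.37% and 1.92% were below that level in these tests.

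High-fat diet and L-NAME, read as C against A, gave differences in both tissues together of -0.29 for Lep, -0.38 for Adipoq, -0.55 for Retn, -0.32 for Cfd and 0.22 for Rbp4, with adjusted P values of 0.964 to 0.972. Rbp4 in aorta was the only one of these whose groups did not overlap, at 14.22 to 14.62 in C against 13.66 to 13.95 in A (0.53, adjusted P value 0.575). The share of all genes without overlap was not counted here either. The treated groups were each set against the same 6 macroangiopathy arrays. SHENQI compound differed from C by 0.59 for Lep (95% interval -0.314 to 1.49), 0.76 for Adipoq (-0.319 to 1.84), 0.88 for Retn (-0.181 to 1.94), 0.80 for Cfd (-0.439 to 2.04) and -0.04 for Rbp4 (-0.753 to 0.675). The yangyinyiqi part gave 0.21, 0.53, 0.73, 0.60 and 0.13 in the same order of genes, and the huoxue part 0.19, 0.24, 0.56, -0.02 and 0.11. Rosiglitazone, whose receptor PPARgamma acts on fat cell genes, gave 0.00, 0.19, 0.45, -0.03 and -0.21. Retn in muscle was the only member with no overlap between F and C (0.64, adjusted P value 0.63), again without a count over all genes.

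These intervals are wide, and 1 muscle array stood apart in fat markers. SHENQI muscle 3 had the highest white fat mean of all muscles, 10.78, and the highest Lep (9.42), Adipoq (13.53), Retn (9.88), Cfd (14.26) and Rbp4 (11.80) among the KK/Ay muscles. In muscle, B differed from C by 0.60 for Lep, 0.85 for Adipoq, 1.21 for Retn, 0.96 for Cfd and 0.59 for Rbp4. Without SHENQI muscle 3 these differences were -0.07, 0.00, 0.36, -0.12 and 0.17. Macroangiopathy muscle 2 had the highest white fat mean of its own group, 9.648. With that array left out as well, the differences were 0.42, 0.60, 0.64, 0.55 and 0.41, a setting chosen after the values were seen. The size of the muscle values thus depended on which of these 2 arrays entered. The only slides shared by a treated group and C were 7 for SHENQI muscle, with differences from 0.746 (Rbp4) to 1.63 (Retn), 6 for yangyinyiqi aorta, from 0.0966 (Rbp4) to 1.51 (Retn), and 8 for yangyinyiqi muscle, from 0.447 (Rbp4) to 1.41 (Cfd).

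The fat carried along was read from the 13 white fat markers, among them Plin1 and Cidec, which coat lipid droplets, and Lipe, which cleaves stored fat. Their mean was 10.98 to 12.42 in healthy aortas and 10.58 to 12.62 in KK/Ay aortas, and 8.93 to 9.921 against 8.826 to 10.78 in muscle, so the healthy arrays lay within the KK/Ay range in both tissues. In A against G, 2 of the 12 tested were called higher, Sncg (1.30) and Trarg1 (1.28), none lower, and the median difference was -0.159 against 0.029 over all genes. In C against G only Sncg was called (1.23), but 11 of the 13 genes had a difference below 0, and the median was -0.269 against 0.026 over all genes. Of all genes, 4.5% were called for A and 5.17% for C.

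Set against the white fat mean of its own array, Lep in aorta was at -6.33 ± 0.766 (SD, n = 3) in healthy mice and at -3.58 ± 0.21 in diabetic mice, and in muscle at -3.78 ± 0.304 and -1.91 ± 0.264. Retn was at 0.359 ± 0.281 in healthy and -3.16 ± 0.658 in diabetic aortas, and at 1.08 ± 0.543 and -1.71 ± 0.284 in muscles. On this scale healthy and diabetic arrays did not overlap in either tissue for Lep, Retn, Cfd and Rbp4, whereas they overlapped in both for Adipoq. The share of all genes without overlap on this scale was not counted. Lep, however, was well above background on only 1 of 3 healthy arrays in each tissue. On the others its value here is mostly background minus the fat mean. Cfd was at 5.58 ± 0.271 in healthy muscles and 1.90 ± 0.177 in diabetic ones, and Rbp4 was at -0.09 ± 1.48 in healthy and 1.84 ± 0.155 in diabetic aortas. Adipoq in aorta was at 2.76 ± 0.243 in healthy, 2.82 ± 0.0438 in diabetic and 2.74 ± 0.16 in macroangiopathy aortas. In muscle it spread more, at 2.49 ± 0.612, 1.94 ± 0.227 and 1.80 ± 0.642.

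**Figure D3:**
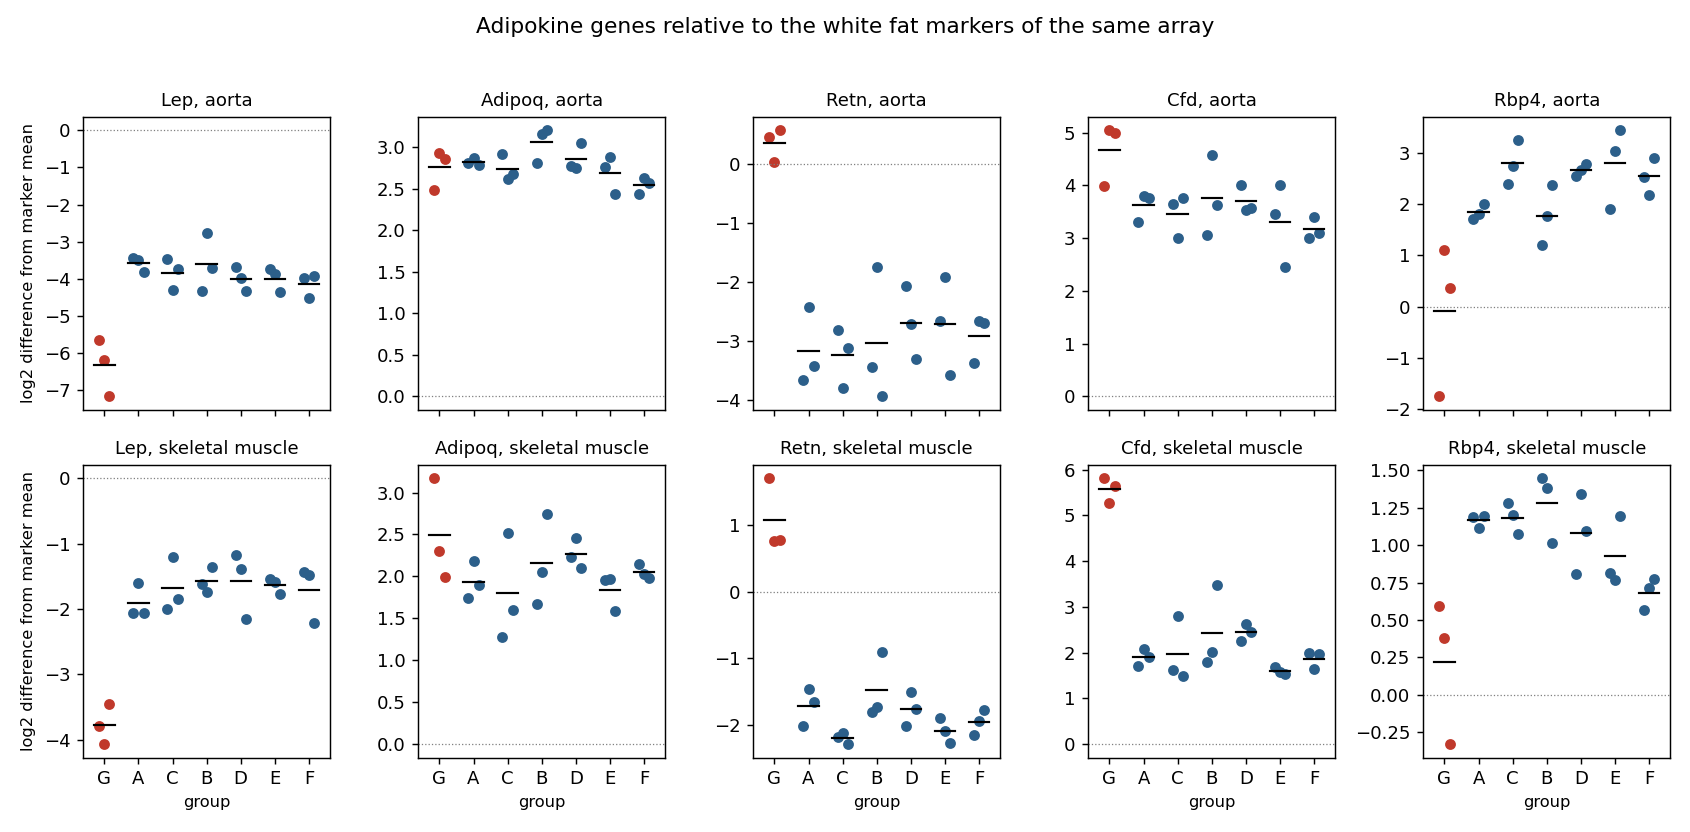
Each adipokine gene minus the mean of 13 white fat markers of the same array, in log2 units, by group and tissue, with red healthy points, blue KK/Ay points, bars for means of 3 and a dotted line at 0. In aorta, Lep lies lower in group G (mean -6.33) than in A (-3.58) and Retn higher (0.359 against -3.16), while Adipoq lies near 2.8 in both. Lep was well above background on only 1 of 3 healthy arrays in each tissue.

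With the white fat mean as a covariate in the fits, Lep differed between A and G by 2.30 (adjusted P value 0.000402) and Retn by -3.15 (9.92e-05), close to the values without it. Rbp4, which had not passed, then did, by 1.46 in both tissues (0.00357) and 1.79 in aorta (0.00938). Cfd was then lower in A in aorta too (-1.11, 0.0204), beside muscle (-3.62, 3.37e-05), and the difference between the tissues passed (2.51, 0.0257). In C against G, Lep was 2.23 (0.00186), Retn -3.38 (2.48e-05), Cfd -2.27 (0.0173) and Rbp4 2.13 (0.025), while the difference between tissues of Cfd did not pass (2.45, 0.0706). Adipoq passed in neither comparison (-0.24, 0.352 and -0.19, 0.56). Of 6 brown fat markers only Elovl3, a fatty acid elongase, was called in aorta, lower in A (-5.23, 0.0358) and C (-4.76, 0.0255), and the medians of the list were -0.112 and -0.311. Of all genes, 2.22% and 6.16% were called there. The mean of the 6 was 11.62, 13.45 and 13.24 in the healthy aortas and 10.98 to 12.8 in the KK/Ay aortas. The part of brown fat, smooth muscle, skeletal muscle or neutrophils in the member differences was not tested.

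Among the 18 KK/Ay arrays of a tissue, the members varied with the white fat mean to different degrees. In aorta Pearson's r was 0.948 for Adipoq (Spearman's rho 0.936, adjusted permutation P values 2.5e-05 and 3.33e-05), 0.77 for Lep (0.711, 0.000333 and 0.0023), 0.737 for Cfd (0.577, 0.000829 and 0.0177), 0.581 for Retn (0.41, 0.0128 and 0.103) and 0.356 for Rbp4 (0.243, 0.147 and 0.332). In muscle r was 0.963 for Adipoq (rho 0.938), 0.922 for Lep (0.876), 0.914 for Retn (0.775), 0.908 for Cfd (0.781) and 0.812 for Rbp4 (0.635), with adjusted permutation P values of at most 0.0018 for r and 0.00843 for rho. The smallest P value the 100000 permutations can give is 1e-05 before adjustment over the 10 relations. Without the 2 arrays farthest from the median fat mean, r stayed at 0.897 and 0.918 for Adipoq in aorta and muscle and at 0.639 and 0.872 for Lep. It was 0.562 and 0.718 for Cfd, and it came to 0.288 and 0.696 for Retn and 0.112 and 0.372 for Rbp4, whose relations in muscle rest in part on SHENQI muscle 3. Healthy arrays were a cluster of their own for Lep and Retn, and for Cfd in muscle. There r over all 21 arrays mixes the clusters. In aorta it was 0.347 for Lep (adjusted permutation P value 0.14) and 0.415 for Retn (0.0756), which did not pass. In muscle it was 0.597 for Lep (0.00976), 0.498 for Retn (0.0433) and 0.481 for Cfd (0.0433). For Rbp4 r over 21 arrays was 0.328 in aorta (0.144) and 0.689 in muscle (0.00925). For Cfd in aorta, where healthy aorta 1 lay among the KK/Ay arrays, r over 21 arrays was 0.735. For Adipoq, where the healthy arrays lay among the others, r over 21 arrays was 0.959 in aorta and 0.939 in muscle. A slide held at most 4 arrays of a tissue, too few for an r of its own. The use of KK/Ay arrays alone was chosen after the values were seen. In a planned setting, deviations from group means over 21 arrays, Rbp4 in aorta did not trail Lep and Retn. There r was 0.684 for Rbp4 (adjusted permutation P value 0.0137), 0.686 for Lep (0.0211) and 0.631 for Retn (0.0294). Without the 2 arrays farthest from the median it was 0.512, 0.658 and 0.48.

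**Figure D4:**
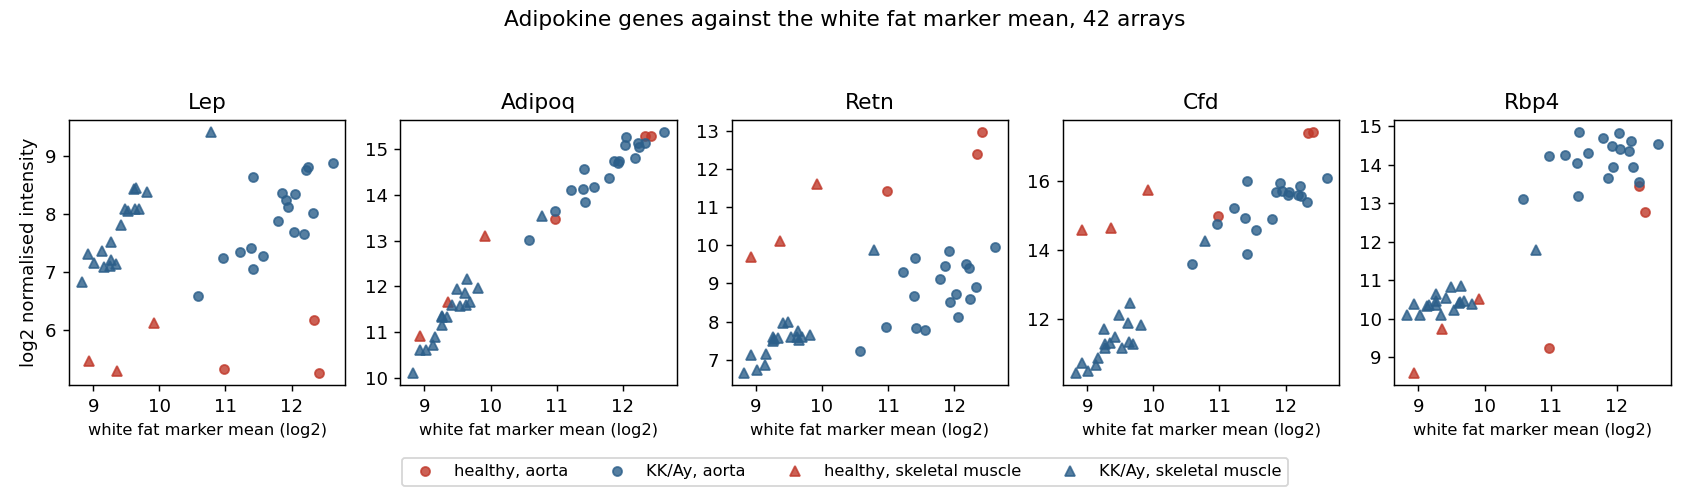
Level of each adipokine gene (log2 normalised intensity) against the white fat marker mean of the same array (log2), with circles for aorta, triangles for skeletal muscle, red for healthy and blue for KK/Ay mice. Adipoq follows 1 line through all 42 arrays, whereas the red points lie below the blue ones for Lep and above them for Retn.

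The members also varied together. Over the same 18 arrays of muscle, r between pairs of members ran from 0.769 (Lep and Rbp4) to 0.955 (Adipoq and Cfd). In aorta the 6 pairs without Rbp4 ran from 0.615 (Adipoq and Retn) to 0.871 (Lep and Cfd), while the 4 pairs with Rbp4 ran from 0.0294 to 0.269. These arrays share 6 groups and 11 slides, and the pairs are given as a description. Among these KK/Ay arrays Rbp4 in aorta lay apart from the other members. The choice of these arrays was made after the values were seen.

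In the order of the group means, neighbours overlapped in nearly every step. The only steps without overlap were those of group G, lowest for Lep in both tissues, highest for Retn in aorta and highest for Cfd in muscle. Neighbouring KK/Ay groups overlapped for every member in both tissues.

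The calls of genes on this list and the next ones were read under the main processing only. How they change with arrays left out or with slide terms was not tested. This includes healthy aorta 1 and healthy muscle 3, with their high neutrophil and macrophage means. Of 10 receptors and binding partners, 9 were tested. C5ar2, a receptor for fragments of complement C5 and proposed as a receptor of acylation stimulating protein, was lower in A in aorta (-1.10, adjusted P value 0.0301), in muscle (-1.33, 0.0155) and in both (-1.22, 0.00102), and it was not called in C against G. In A this was 1 of 9, against 2.22% of all genes in aorta, 1.45% in muscle and 4.5% in both. None was called higher, and Lepr, the leptin receptor, did not pass (-0.51, 0.299). The median of the list was -0.0996 for A and -0.207 for C, against 0.029 and 0.026 over all genes.

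Of 13 genes of signalling, complement and adiponectin assembly, only C3 was called in these comparisons. C3, the complement component that the alternative pathway cleaves, was lower in both tissues together in A (-1.17, 0.0435) and in C (-1.15, 0.024). This was 1 of 13 in each, against 4.5% and 5.17% of all genes. In E against C, Erp44, which retains adiponectin in the secretory pathway, was lower in muscle (-0.63, 0.00144), 1 of 13 against 10.6% of all genes, and its difference between tissues was called (0.64, 0.0205).

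Of 7 transcriptional regulators of these genes, 3 were called lower in muscle or in both tissues. In muscle these were 2 of 7 for A and for C, against 1.45% and 1.56% of all genes. In both tissues together they were 2 of 7 each, against 4.5% and 5.17%. Cebpd was lower in muscle of A (-2.72, 0.00577) and of C (-2.01, 0.0286). Klf15 was lower in muscle of A (-1.36, 0.00118) and C (-1.05, 0.00519), and in both tissues together (-0.85, 0.0209 and -0.70, 0.0192). Cebpb was lower in both tissues together (-0.80, 0.0219 and -0.96, 0.0258). Cebpd and Cebpb encode members of the C/EBP family, and Klf15 is a zinc finger factor that rises as fat cells mature. Neither Pparg nor Cebpa was called in any of these. In E against C, Rxra, the partner of PPARgamma, was lower in muscle (-0.62, 0.012), 1 of 7 against the same 10.6%.

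Of 14 other adipokines, 11 were tested for A and 12 for C. Rarres2, which encodes chemerin, was higher in aorta in A (1.65, 0.0117) and in C (1.70, 0.0111), and none was lower. This was 1 of 11 and 1 of 12, against 2.22% and 6.16% of all genes in aorta. The medians in both tissues together were -0.0906 and -0.143. In E against C, Sfrp5, an inhibitor of Wnt signals, was higher in muscle (0.66, 0.0112), 1 of 12 against 10.6%. The shares of the lists in E against C lie near that of all genes.

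The genes whose pattern was nearest to each member over the 21 arrays of a tissue, by Pearson's r among genes well above background on all of them, differed by member and tissue. For Adipoq they were Plin1 (0.969) and Amy1 (0.957) in aorta and Slc7a10 (0.968), Slc1a5 (0.967) and Ntrk2 (0.954) in muscle. For Lep they were Fam20c (0.922), Npr3 (0.908) and Fzd4 (0.883) in aorta and Crtac1 (0.925), Serpina1d (0.91) and Tusc5, the array's name for Trarg1 (0.888), in muscle. Plin1 and Trarg1 are both white fat markers of the list used here. For Retn they were Lrrc8d (0.925), Car5b (0.917) and Orm2 (0.913) in aorta and Arhgap30 (0.944), Lrmp (0.942) and Fasn (0.935) in muscle. For Cfd they were Ces1f (0.891), Gstz1 (0.866) and Cd1d1 (0.862) in aorta and Selenbp2 (0.936), Selenbp1 (0.926) and Ccl5 (0.917) in muscle. For Rbp4 they were Sparc (0.98), Oxct1 (0.955) and Ift81 (0.954) in aorta and Rtn4rl1 (0.906), 9630013D21Rik (0.902) and Aoc3 (0.893) in muscle. Amy1 and Aoc3 encode enzymes, and Sparc a protein of the extracellular matrix. These r values span the healthy and the KK/Ay arrays and share their slides and processing.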

How the data were processed

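Total RNA of aorta and skeletal muscle was hybridized to 42 single-colour Agilent mouse arrays of 45018 spots, 1639 of them controls. Per the file headers the authors scanned them with Feature Extraction 10.7.3.1, design build mm9, and deposited median intensity and local background per spot. Log2 values of 41267 probes, also from the authors, were already quantile normalized (columns' quantiles differed by at most 0.0018) and uncentred. They followed the processed signal (Spearman at least 0.99984). They served as an alternative.

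Here median intensities were corrected with normexp (offset 0), quantile normalized over 42 arrays and log2 transformed with limma 3.58.1 (R 4.3.3). Control spots and, for all genes, spots flagged as irregular were left out. Among the members these were 5 spots, all of Lep. The remaining spots were averaged to probes and probes to genes, and names came from the 8 files with the full columns. Tested genes had a probe that Feature Extraction called well above background in every array of 1 or more of the 4 sets of 3. Fits used the 12 arrays compared, with tissue as a term or with 4 means, and lmFit and eBayes with Benjamini-Hochberg adjustment over all genes, called below 0.05. The tissues were compared over all 42 arrays with 14 means. Scripts were tested on simulated data. Precision is limited by the number of arrays, and no 2 arrays were the same (highest r 0.9943).

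All 5 members are reported in every comparison, list genes where called, and the 3 nearest genes by r per tissue, of which 1 is not reported here. Members and lists were chosen with earlier results of these data known. The correlations used 100000 permutations, two-sided. Replicate numbers did not pair samples across groups: within a tissue, same-numbered samples of the groups compared deviated together at a median r of -0.114, with 10 of 42 pairs over 0.1. Aorta and muscle of the same group and number were not compared, so whether they came from the same mouse was not tested. Alternatives were other background corrections, the authors' values, other normalizations, filters, probe rules and eBayes settings, all 42 arrays, slide terms, the replicate block, the white fat mean as a covariate and each array left out.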

Additional observations from a re-analysis of the deposited data

How the results depend on the processing

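In both tissues together, Lep and Retn kept their direction and calls for A against G under every setting tried (the stricter filter left Lep untested), with Lep between 1.34 and 4.62 and Retn between -3.66 and -2.83. For C against G, Retn did so too, and Lep lost its call only without the healthy arrays of slides 1 and 3 (1.80, adjusted P value 0.0971), a setting chosen after the values were seen. Cfd was the least firm: with an array left out, its call for A against G was lost in 9 of 12 cases (all but diabetic aorta 1 and healthy aorta 1 and 2, adjusted P value up to 0.0939) and for C against G in 6 of 12 (healthy aorta 3, healthy muscle 1, macroangiopathy aorta 2 and 3 and muscle 1 and 3, up to 0.0657). Members called in aorta for A against G numbered 2, but 0 with slide as a fixed block, 1 under the stricter filter, 4 with the fat covariate, and 1 to 3 with an array left out. In aorta for C against G they numbered 2, but 1 with offset 50, the stricter filter, slide as a random block, the replicate block or without the healthy arrays of slides 1 and 3, and 1 to 3 with an array left out. In muscle they numbered 3 for A against G, but 2 in the authors' values, the processed signal (Lep 0.0537), quantiles within tissue, the stricter filter, the replicate block and all 42 arrays with the slide term, 0 with slide as a random block and 0 to 3 with an array left out, and 2 for C against G, but 1 with either block and 0 to 2 with an array left out. The numbers differing between tissues for A against G rose from 0 to 1 with the fat covariate, and to 1 without the healthy arrays of slides 1 and 3, where Rbp4 turned from 1.21 to -1.45 (adjusted P value 0.0428). The replicate block ended the calls of Cfd in both tissues (0.0633 for A, 0.0541 for C), Retn in muscle of A (0.0541), Cfd in muscle of C (0.074) and Lep in aorta of C (0.0568). Between tissues, which the white fat mean nearly separates, the fat covariate turned Adipoq to -0.16, Lep to -2.08 and Retn to -1.31. Rbp4 passed over both tissues with all 42 arrays in the fit (1.43, 0.0167 for A and 1.64, 0.00658 for C). No setting gave a call of a member among the KK/Ay groups. All genes called numbered 667 for A and 814 for C against G, but 3151 and 3518 with all 42 arrays in the fit, 2757 and 2108 with a further term for slides 1, 3 and 11, 1430 and 1397 with the fat covariate, and for C 359 with slide as a random block and 480 with the replicate block. The causes were not tested. Signal over background limits Lep in healthy mice.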
